A study of Mus musculus with 16 samples.

Results

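Major urinary protein genes were read in liver RNA of 16 mouse offspring whose mothers had breathed either filtered air or UV-Titan, nanoparticles of coated titanium dioxide, during pregnancy. Members were all non-control probes that the array names Mup followed by a number: 7 probes of 41174, with 1 spot each, carrying 4 gene names. Mup1 had 3 probes, Mup3 had 2, and Mup4 and Mup5 had 1 each. The mothers were time-mated C57BL/6BomTac mice, placed in whole-body chambers from gestation day 8 to day 18, 1 hour daily, with about 42 mg/m3 where the agent was UV-Titan. Among daughters, 3 livers were controls and 5 had UV-Titan mothers, and among sons each arm had 4. Each liver had its own array. The study took offspring on postnatal day 2 and at weaning on postnatal days 23 to 24, and the labels do not say from which of these ages each liver came. They also do not name litters, so p-values measure the spread between these livers. Each liver was labelled against a universal mouse reference RNA, a bought RNA pool that belongs to no group.

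Major urinary proteins are small secreted lipocalins that carry pheromones in a hydrophobic pocket. In adult mice the liver makes them, usually more in males, and they pass through blood into urine. The genes form a cluster of near-identical copies, and their liver transcription is known to start after birth and to depend on pulsatile growth hormone acting through Stat5b. RefSeq (GRCm38.p6) lists 22 Mup genes with a number, so a probe named for 1 gene may also detect others, and the names below are those of the array.

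The probe sequences were compared with those of the other probes of the array, and not with Mup transcripts. The first pair is printed whole, because the Mup1 probe read above the reference on all 16 arrays, though near background in both channels, and the Mup5 probe opens with ATG. Capitals in the Mup1 probe mark the 31 bases it shares with another chromosome 4 probe, which the array calls NAP112201-1 and describes as unknown. Capitals in the Mup5 probe mark its first 3 letters. All sequences are from the array files, 5′ to 3′.
Mup1 A_51_P461703: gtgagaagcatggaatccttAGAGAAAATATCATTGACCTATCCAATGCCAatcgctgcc
Mup5 A_52_P412506: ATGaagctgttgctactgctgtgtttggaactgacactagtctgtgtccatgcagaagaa

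The other 2 Mup1 probes share a run of 20 bases, shown in capitals in a window of 30 bases from each. The bases before the run differ, and the array places the 2 probes at separate positions. Whether they detect the same transcripts was not tested. A_51_P180314 also shares a run of 19 bases with the probe for LOC620807, a predicted Mup-like gene.
Mup1 A_51_P180314, bases 18 to 47: tttacAGAAGAGATGAAGAGTGCTCcgaat
Mup1 A_52_P348256, bases 31 to 60: aatgtagaaaAGAAGAGATGAAGAGTGCTC

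The probes for Mup3 and Mup4 that could be tested are shown by their last 30 bases, with AATAAA, the letters of a polyadenylation signal, in capitals in the Mup3 probe. Neither shared a run of 15 or more bases with any other probe of the array. That does not show which Mup transcripts they detect.
Mup3 A_52_P232508, bases 31 to 60: tgatttctttcctgtcctgttcAATAAAtg
Mup4 A_51_P266883, bases 31 to 60: gatctgctttccatcctgtctcacagagaa

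In the array files' build, mm7, the 6 placed members all lay on the minus strand of chromosome 4. Mup4 was at chr4:59998341-59998400, Mup1 A_51_P461703 at chr4:60420781-60421004, Mup1 A_51_P180314 at chr4:60502405-60502464, Mup1 A_52_P348256 at chr4:60951764-60953063, Mup5 at chr4:61268759-61268818 and Mup3 A_52_P232508 at chr4:61517162-61517210. The Mup1 probe A_51_P461703 spans 224 bases and A_52_P348256 spans 1300 bases with 60 bases of sequence, so each is split on the genome. The position of Mup3 A_52_P232508 spans only 49 bases, so it does not hold all 60 bases of that probe. The second Mup3 probe, A_52_P232507, has no position in the files. Exons and UTRs of that build were not used here.

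The label fields name Cy3 for liver while the labelling protocol names Cy5, so the liver channel was settled from the data. The 15 measured hepatocyte markers had a median log2 liver over reference of 4.80 to 6.17 in the red channel, above 0 on all 16 arrays. Male minus female in red was -8.64 for Xist and 6.36 for Ddx3y on the log2 scale, and 0.18 and 0.07 in green. Red was read as liver. The scanner software marks a spot as well above background, and in liver 57.7% to 67.1% of an array's spots had that mark. No liver spot was saturated.

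Major urinary protein signal in these livers was at or near background in all 4 groups. Of 112 readings (7 probes on 16 arrays), 29 (25.9%) were well above background in the liver channel, and 21 (18.8%) were so in the reference channel. Of those 29 liver readings, 25 came from 1 Mup3 probe (13 arrays) and the Mup4 probe (12 arrays), and the other 5 probes gave 4. Across all non-control probes, 55.6% were well above background in liver on all 16 arrays and 25.5% on none. No Mup probe was well above it on all 16 arrays. By group the marked readings were 2 of 21 in female controls, 12 of 35 in female UV-Titan, 9 of 28 in male controls and 6 of 28 in male UV-Titan. By the software's weaker mark, a signal that is positive and significant, the counts were 13 of 21, 20 of 35, 16 of 28 and 11 of 28. Female controls thus had the lowest share by the stricter mark and the highest by the weaker one, so the order of the groups depends on the mark. Among all arrays, female control 35 had the smallest share of marked liver spots (57.7%) and the highest lowest marked signal (56.8). Its Mup3 A_52_P232508 (62.7) and Mup4 (64.6) readings had no stricter mark, while dimmer readings on other arrays did. Liver signal was positive and significant on all 16 arrays for Mup3 A_52_P232508 and for Mup4, on 12 for Mup1 A_51_P461703, on 10 for Mup5, and on 3, 2 and 1 for the other 3 probes. On 20 of the 29 readings well above background, the reference channel of the same spot was marked too.

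**Figure D1:**
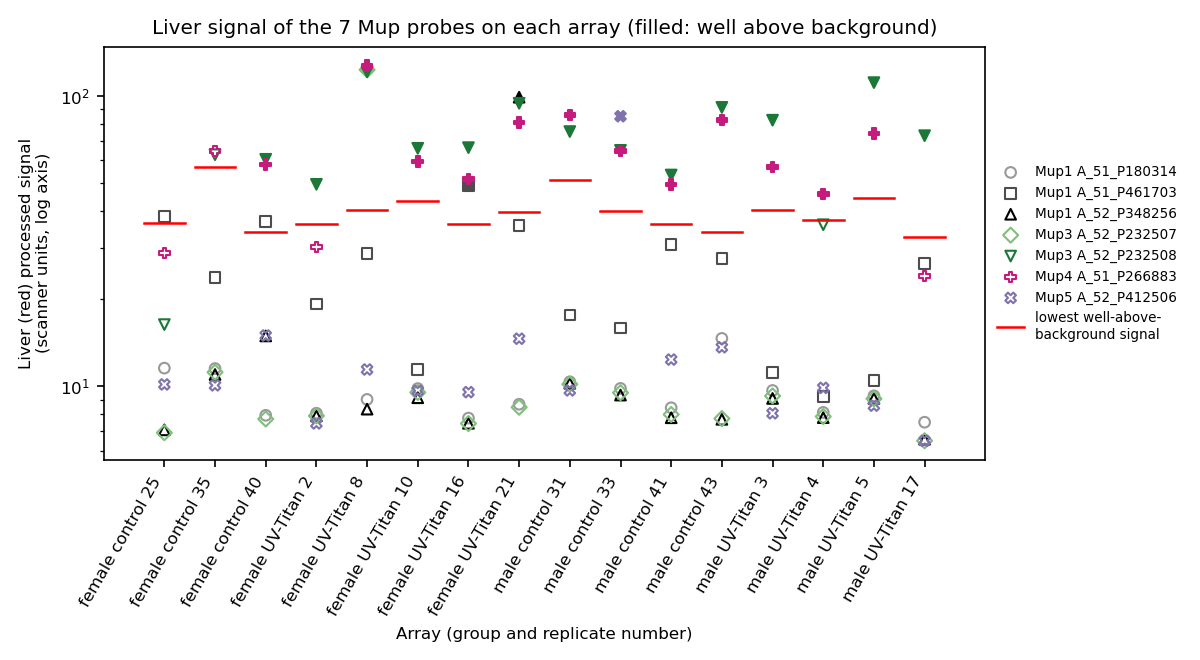
Liver (red) processed signal in scanner units on a log axis, for the 7 Mup probes on each of the 16 arrays. Filled symbols are well above background, and red bars mark the lowest liver signal of the array that was (32.7 to 56.8). The highest Mup reading was 127, and most open symbols lie below 20.

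The Mup3 probe A_52_P232508 was the member above background on the most arrays. Its liver processed signals, in scanner units after background subtraction, were 16.3, 62.7 and 60.5 in the female controls 25, 35 and 40. They were 49.6, 121, 66.0, 66.3 and 94.3 in the female UV-Titan animals 2, 8, 10, 16 and 21. They were 75.3, 64.9, 53.4 and 91.2 in the male controls 31, 33, 41 and 43. They were 82.4, 36.0, 111 and 72.9 in the male UV-Titan animals 3, 4, 5 and 17. The lowest readings were in female control 25 and male UV-Titan 4, and the ranges of the 4 groups overlap. The lowest signal well above background was 32.7 to 56.8 on these arrays, and the brightest spot of any probe reached 1255600 to 1787000.

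Against the reference, that Mup3 probe gave a mean log2 ratio of 0.11 ± 0.11 (SD, n = 3) in female controls and 0.15 ± 0.16 (n = 5) in female UV-Titan. Male controls gave 0.08 ± 0.03 (n = 4) and male UV-Titan 0.19 ± 0.07 (n = 4). The reference channel of the probe was itself well above background on 10 of 16 arrays. These ratios were computed with an offset of 50 added to each channel, which pulls dim spots towards 0, so the ratio of the processed signals is given too. That was 0.38 ± 0.46 (n = 16) on the log2 scale, with values from -0.75 to 1.08.

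Mup4 encodes a major urinary protein known mainly from nasal and glandular tissue. Its liver processed signals were 28.7, 64.6 and 58.0 in female controls 25, 35 and 40. In female UV-Titan animals 2, 8, 10, 16 and 21 they were 30.1, 127, 59.4, 51.7 and 80.9. In male controls 31, 33, 41 and 43 they were 85.9, 64.6, 49.5 and 82.6. In male UV-Titan animals 3, 4, 5 and 17 they were 56.9, 45.9, 74.3 and 24.0. All 4 ranges overlap, and the highest reading was in female UV-Titan 8, which also had the highest Mup3 reading. The mean log2 ratios were 0.20 ± 0.12 (n = 3) in female controls, 0.09 ± 0.10 (n = 5) in female UV-Titan, 0.07 ± 0.09 (n = 4) in male controls and 0.08 ± 0.05 (n = 4) in male UV-Titan. The reference channel was well above background on 8 of 16 arrays.

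Mup1 encodes an abundant urinary protein of adult liver. Its probe A_51_P461703 read higher in liver than in reference on all 16 arrays, but liver was well above background on 1 (female UV-Titan 16) and reference on none. Most of these readings therefore lie near the floor. By the same count liver read higher on 13 of 16 arrays for the tested Mup3 probe and for Mup4. It did so on 14 for the LOC620807 probe and on 12 for the NAP112201-1 probe, and neither was ever well above background. Those counts use processed signals. The log2 ratio computed with the offset was above 0 on 16 arrays for this Mup1 probe. It was so on 14 for the tested Mup3 probe and for Mup4, 8 for LOC620807 and 13 for NAP112201-1. The count for LOC620807 thus depended on the measure, while that of this Mup1 probe did not. The difference between these probes was not tested. Liver processed signals were 38.3, 23.7 and 37.0 in female controls, and 19.2, 28.7, 11.4, 49.2 and 35.7 in female UV-Titan animals 2, 8, 10, 16 and 21. They were 17.6, 15.9, 30.8 and 27.6 in male controls 31, 33, 41 and 43, and 11.1, 9.22, 10.5 and 26.5 in male UV-Titan animals 3, 4, 5 and 17. The 4 lowest, in female UV-Titan 10 and male UV-Titan 3, 4 and 5, were not positive and significant and so have no order. All 4 ranges overlap.

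With the offset of 50 the mean log2 ratio of that Mup1 probe was 0.17 ± 0.06 (n = 3) in female controls, 0.15 ± 0.11 (n = 5) in female UV-Titan, 0.14 ± 0.10 (n = 4) in male controls and 0.09 ± 0.07 (n = 4) in male UV-Titan. Ratios of processed signals are not given by group, since the reference was above background on no array. The probe was below the brightness limit for testing. In a fit without that limit it gave -0.02 ± 0.07 (SE) in females and -0.04 ± 0.07 in males for UV-Titan minus control (limma, adjusted p = 0.996 and 0.983). The NAP112201-1 probe, which shares the 31 capitals printed above, was well above background on no array in either channel, with liver signals of 7.93 to 14.4.

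The remaining 4 members were near the floor. The median liver processed signal over 16 arrays was 9.14 for Mup1 A_51_P180314, 8.71 for Mup1 A_52_P348256, 8.23 for Mup3 A_52_P232507 and 9.97 for Mup5 A_52_P412506. The first was well above background on no array and each of the other 3 on 1 array, where the reference channel of the same spot was bright too. Their mean log2 ratios over 16 arrays were 0.02 ± 0.10, -0.04 ± 0.08, -0.04 ± 0.09 and -0.07 ± 0.09. The SD is the spread of single arrays and does not show whether a mean is level with 0. In the same order, the ratio was above 0 on 9, 3, 4 and 4 of 16 arrays.

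**Figure D2:**
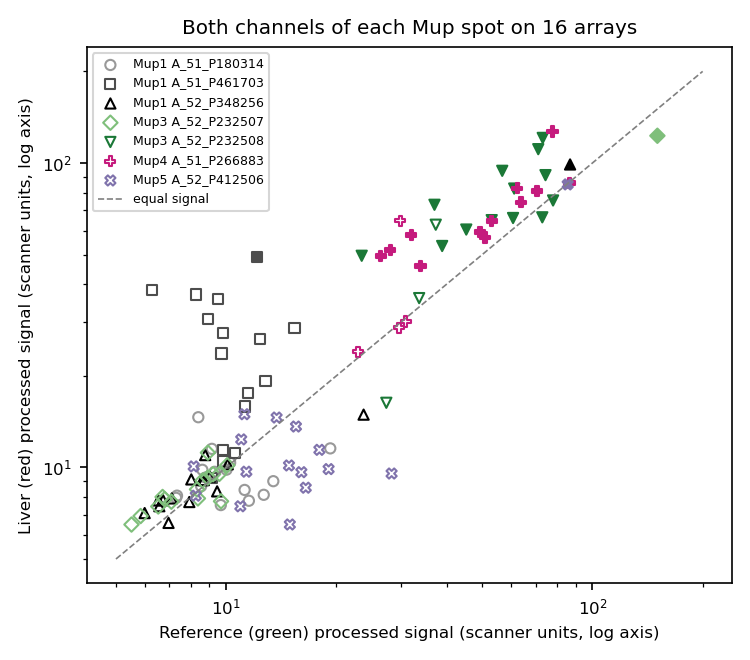
Liver against reference processed signal, both in scanner units on log axes, for each Mup spot on the 16 arrays. Filled symbols are well above background in liver and the dashed line marks equal signal. Mup1 A_51_P461703 lies above the line on all 16 arrays, and the single bright readings of Mup1 A_52_P348256, Mup3 A_52_P232507 and Mup5 lie near it.

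Probes from the same locus under other names gave the same picture. A_51_P435858, which the array calls TC1533197 and places at chr4:61518179-61518238, was well above background in liver on 8 of 16 arrays and in reference on 9, with liver signals of 24.6 to 94.5. The probes for ENSMUST00000098050 and LOC620807 were well above background on no array in either channel, and their liver signals stayed between 6.70 and 11.3 and between 6.41 and 14.2.

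No major urinary protein probe passed the test for exposure or for sex. Only 2 of the 7 members, Mup3 A_52_P232508 and Mup4, passed the limit of being well above background in liver on at least 3 arrays, so these counts do not speak for the other 5. Of these 2, none was called for UV-Titan minus control in females, in males or over both sexes, nor for the female effect minus the male effect (limma, Benjamini-Hochberg adjusted p under 0.05), and none had an unadjusted p under 0.05. Over all 27920 probes tested, those contrasts called 0%. At an unadjusted p under 0.05 they held 6.35%, 4.95%, 6.76% and 4.29% of probes. For male minus female, 0 of 2 members were called against 0.0501% of all tested probes (14, with 0.0179% higher and 0.0322% lower), and 0 of 2 had an unadjusted p under 0.05 against 4.18%.

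For Mup3 the log2 difference was 0.03 ± 0.08 (SE, 95% interval -0.14 to 0.20) in females and 0.11 ± 0.08 (-0.06 to 0.27) in males. For Mup4 it was -0.10 ± 0.07 (-0.26 to 0.05) in females and 0.01 ± 0.07 (-0.14 to 0.16) in males. Adjusted p from limma was 0.975 and 0.962 for Mup3, and 0.881 and 0.997 for Mup4. The sizes depend on the processing. The scanner software's processed signals carry no offset. They gave 0.36 ± 0.32 in females and 0.29 ± 0.31 in males for Mup3 in UV-Titan minus control. Both values lay above the upper ends of the intervals just given. For Mup4 they gave -0.24 ± 0.27 and -0.17 ± 0.26, and the value in males lay below the lower end of its interval. Neither probe was called. Averaged over the sexes, UV-Titan minus control was 0.07 ± 0.06 for Mup3 (limma, adjusted p = 0.865) and -0.05 ± 0.05 for Mup4 (0.903). The 95% intervals were -0.05 to 0.19 and -0.16 to 0.06. From processed signals the values were 0.33 ± 0.23 and -0.21 ± 0.18, both outside these intervals. The female minus the male effect was -0.07 ± 0.11 for Mup3 and -0.11 ± 0.10 for Mup4 (limma, adjusted p = 0.987 and 0.978).

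Male minus female was 0.01 ± 0.06 (95% interval -0.11 to 0.13) for Mup3 and -0.07 ± 0.05 (-0.18 to 0.04) for Mup4. The adjusted p was 0.999 for both (limma). From processed signals the values were 0.07 ± 0.23 and -0.21 ± 0.18, and that of Mup4 lay below its interval. Within slides that held both arms, the female difference UV-Titan minus control was -0.05, 0.06 and -0.10 for Mup3 and -0.19, -0.24 and 0.06 for Mup4. The male difference within slides was 0.08, 0.20 and 0.04 for Mup3 and 0.02, 0.08 and -0.05 for Mup4. Of these slide by slide values, only those of Mup3 in males all had 1 sign. Each compares 1 liver with 1 liver. With no brightness limit, 0 of 7 members were called in any of the 5 contrasts, where male minus female called 0.0364% of all probes and the others 0%, and 1 had an unadjusted p under 0.05. That was Mup3 A_52_P232507, a probe above background on 1 array. It was at -0.15 ± 0.06 in males (limma, adjusted p = 0.961) and -0.12 ± 0.04 over both sexes (adjusted p = 0.678). The share of all probes with such an unadjusted p was not computed without the limit. With the limit it was 4.95% in males and 6.76% over both sexes, so 1 of 7 members is not read as a result.

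**Figure D3:**
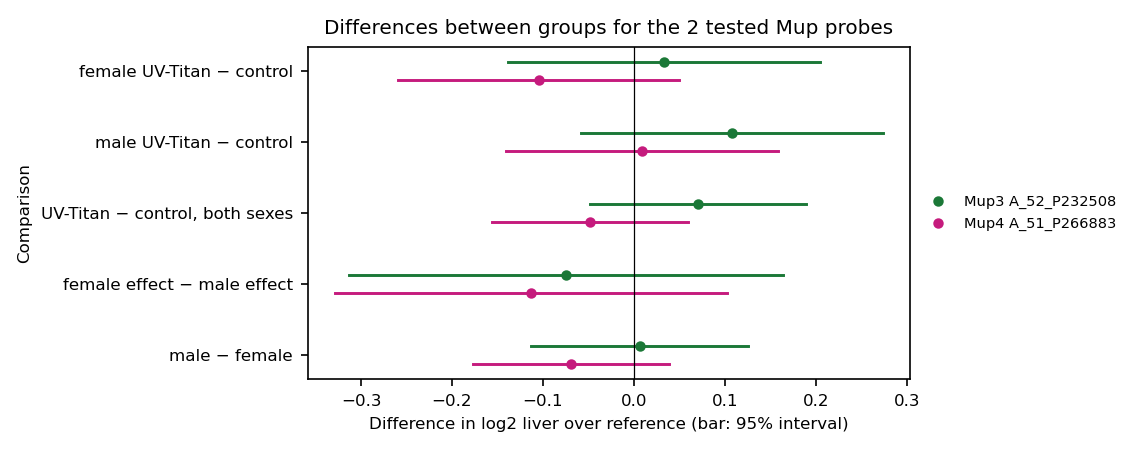
Differences between groups in log2 liver over reference for the 2 tested Mup probes, with points for the limma estimate and bars for its 95% interval. All 10 intervals include 0, and the widest run from -0.33 to 0.10 and from -0.31 to 0.16.

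Genes whose liver level changes around and after birth were bright in the same livers. Afp, the fetal serum protein, had a log2 ratio over reference of 8.11 ± 0.73 (SD, n = 16). Igf2 and the noncoding RNA H19, imprinted genes of fetal growth, stood at 4.17 ± 0.47 and 3.46 ± 0.38, Gpc3, a fetal liver proteoglycan, at 6.11 ± 0.32, and Cyp3a16, a perinatal cytochrome P450, at 7.06 ± 0.23. Cyp3a16 has near-identical neighbours, so its reading is uncertain. Dlk1, a hepatoblast surface protein, was level with the reference (0.00 ± 0.21), and Scd2, a desaturase of early liver, was at -3.50 ± 0.15. Both were well above background in liver and in reference on all 16 arrays. Their median liver processed signals were 24812 and 9456, so these ratios do not mean absence from liver. Of 26 fetal and perinatal genes measured, 24 were well above background on all 16 arrays, beside 55.6% of all probes. Their median ratio was 1.25.

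Genes that are activated after birth, as the Mup genes are, were also well above background. All 24 measured members of that list were so on all 16 arrays, beside 55.6% of all probes, with a median log2 ratio of 4.57. A gene with several probes was read by the one brightest in liver. Signal above background does not by itself show that a gene had been activated. Cyp7a1, the rate-limiting enzyme of bile acid synthesis, was at 3.41 ± 0.38, Cyp2e1, an ethanol-metabolising P450, at 5.00 ± 0.42, Car3, a carbonic anhydrase, at 3.83 ± 0.43, and Serpina1e, an antitrypsin gene with near-identical copies, at 4.56 ± 0.26. Tdo2, which begins tryptophan breakdown, stood at 0.54 ± 0.26, and Egfr, the epidermal growth factor receptor, at 1.32 ± 0.26. Median liver processed signals were 1147400 for Afp, 428450 for Igf2, 284140 for H19, 43459 for Gpc3 and 42646 for Cyp3a16. They were 218250 for Serpina1e, 98250 for Cyp2e1, 15014 for Egfr, 4857 for Car3, 2357 for Cyp7a1 and 151 for Tdo2. Differences in level between genes were not tested. So in all 4 groups fetal genes, most genes activated after birth and near-background Mup probes were read together, though at very unlike signals. The labels assign no age to set beside them.

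By group, Afp was at 7.45 ± 0.42 in female controls, 8.24 ± 0.70 in female UV-Titan, 8.56 ± 0.35 in male controls and 7.99 ± 1.01 in male UV-Titan. Cyp7a1 was at 3.59 ± 0.20, 3.20 ± 0.49, 3.53 ± 0.38 and 3.41 ± 0.36 in the same order. None of the fetal genes and none of the genes activated after birth was called in any of the 5 contrasts (limma, adjusted p over 27920 probes). In females 14 of 24 genes activated after birth and 7 of 26 fetal genes had an unadjusted p under 0.05, beside 6.35% of all probes, and their median differences were 0.36 and 0.12, beside 0.01 over all tested probes. In males 2 of 24 and 1 of 26 had one, beside 4.95% of all probes, with medians of 0.01 and -0.02. Lists of several cell types also had medians above 0 in females. These were 0.55 for hepatocyte markers (11 of 15 at an unadjusted p under 0.05), 0.52 for granulocyte (7 of 9), 0.30 for endothelial (4 of 7), 0.26 for erythroid (5 of 11) and 0.23 for macrophage and Kupffer markers (2 of 8). Stellate markers were at 0.17 (1 of 6) and bile duct markers at 0.03 (0 of 5). No gene of these lists was called, and their part in the stage genes' values was not tested.

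**Figure D4:**
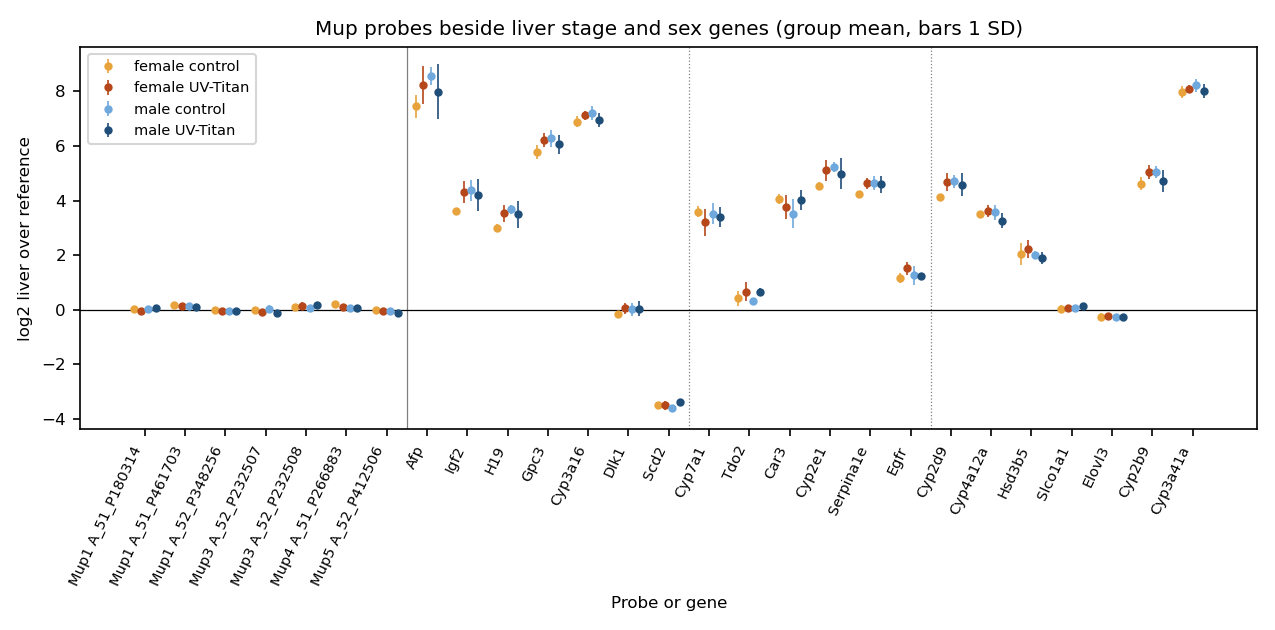
Group mean of log2 liver over reference for the 7 Mup probes (left), 7 fetal genes, 6 genes activated after birth and 7 sex-biased genes, with bars of 1 SD and 3 to 5 arrays a group. All Mup means lie close to 0, while Afp lies between 7.45 and 8.56 and Cyp7a1 between 3.20 and 3.59. Slco1a1 and Elovl3 also lie near 0.

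Transcripts of the growth hormone pathway that drives Mup genes in adults were detected, while signalling through it was not measured. Ghr, the growth hormone receptor, had a log2 ratio of 1.17 ± 0.16, Stat5b, its transcription factor, 1.52 ± 0.12, Socs2, a feedback inhibitor, 2.70 ± 0.33, Igf1, the main hormone target, 2.05 ± 0.25, and Igfals, the carrier subunit of circulating Igf1, 2.69 ± 0.17, each over 16 arrays. The ratios of Stat5a (0.14 ± 0.08), Jak2 (-0.48) and Socs3 (-0.88 ± 0.13) were lower. These ratios to a pool do not rank genes by liver signal. The median liver processed signal was 12204 for Socs3, 10824 for Socs2 and 2009 for Igfals. Of 28 measured genes of the pathway and of Mup regulators, 20 had a mean ratio above 0, beside 52.1% of all probes. Of the 28, 27 were well above background on all arrays, beside 55.6% of all probes. The exception was Zhx2, a repressor of fetal liver genes that also acts on Mup genes, on 1 of 16 arrays with a ratio of -0.11 ± 0.06. Bcl6 and Cux2, repressors of sex-biased liver genes, were at -1.88 ± 0.10 and 2.50 ± 0.20. No gene of the list was called in any contrast.

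Other male-biased genes of adult liver did not behave alike. Cyp2d9 (4.56 ± 0.36), Cyp4a12a (3.49 ± 0.26), Hsd3b5 (2.06 ± 0.29) and Cyp7b1 (1.74 ± 0.27) were well above background on all 16 arrays, and their paralogs may share signal. Slco1a1, an organic anion transporter, was so on 0 of 16 (0.08 ± 0.08) and Elovl3, a fatty acid elongase, on 3 of 16 (-0.26 ± 0.10). Male minus female was 0.25 ± 0.14 for Cyp2d9 and -0.14 ± 0.11 for Cyp4a12a (limma, adjusted p = 0.999 for both). Among female-biased genes, Cyp2b9 (4.89 ± 0.33), Cyp2b13 (4.19 ± 0.18) and Cyp3a41a (8.09 ± 0.21) were well above background on all arrays, and Sult3a1 on 7 of 16. Of the measured genes, 13 of 15 male-biased and 12 of 14 female-biased genes were above background on all arrays, beside 55.6% of all probes. Of these genes, 0 were called between the sexes.

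Other genes of the lipocalin family and their relatives differed widely. Ambp (7.79 ± 0.53), Rbp4 (6.11 ± 0.46), Apom (3.98 ± 0.32) and C8g (4.52 ± 0.20), secreted by hepatocytes, were well above background on all 16 arrays. Orm1 and Orm2, acute phase lipocalins of adult liver, were so on 13 of 16 arrays each, at ratios of 0.25 ± 0.13 and 0.26 ± 0.14. Lcn3, Lcn4, Lcn8 and Obp1a, known from glands and nasal tissue, and Apod were so on none. Of 16 genes, 7 were above background on all arrays and 5 on none, beside 55.6% and 25.5% of all probes. Of the defining markers of salivary and lacrimal gland, another source of Mup transcripts, 5 of 8 were above background on no array and 1, Amy1, on all, which liver also expresses.

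The 8 genes whose liver-channel signal over 16 arrays was most like that of Mup3 A_52_P232508 were 9630019E01Rik (Pearson's r = 0.884), Lypd2, Syne1, Mepe, TC1429763, Sox15, Kdr and Ly6g5b (0.794), out of 16215 candidate genes. Likeness of the log2 ratios was weaker, at 0.22 to 0.63. The points share arrays and overall brightness, and the reference probe is dim, so this is given as a description only.

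RefSeq's promoter table (GRCm38.p6, windows of 300 bases around a gene's start) held 14 Mup genes. The letters TATATA, searched on both strands, were in 13 of these 14 windows and in 5.67% of all 32851. TTCNNNGAA, the core letters of a Stat5 site with N for any base, was in 0 of 14 and in 8.30% of all. With so low a share over all windows, 0 of 14 does not show that Mup genes lack such sites. Sites outside the 300 bases were not searched. The Mup genes are near-identical copies, so their windows are not separate observations for either motif. The windows around TATATA (capitals) of the 2 tested genes are printed because they were identical at 39 of 46 bases, and both probes were dim in all groups. Both lie on the minus strand, Mup3 at chr4:62087303-62087348 and Mup4 at chr4:59960671-59960716.
Mup3: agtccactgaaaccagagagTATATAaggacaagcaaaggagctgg
Mup4: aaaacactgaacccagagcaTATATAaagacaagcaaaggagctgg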

How the data were processed

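The authors deposited Agilent Feature Extraction 9.5.3.1 files (version per the labels) for 16 two-colour arrays on 5 slides scanned on 4 days. Mean spot intensity and local background intensity were as scanned, per the file headers. Processed intensity was background-subtracted, detrended and dye-normalised, per the file headers. Other columns hold the software's marks (well above background, positive and significant, outlier), per the file headers. A series table of log2 ratios, deposited with no stated processing, had columns that followed red over green (r 0.984 to 0.993, medians -0.0449 to -0.0375).

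Here both channels were corrected by normexp (offset 50) and loess-normalised within arrays in limma 3.58.1 (R 4.3.3), with control spots at weight 0 and outlier spots left out. One model with 4 group means was fitted to the 27920 probes well above background in liver on at least 3 arrays, with two-sided tests and Benjamini-Hochberg adjustment at 0.05. The fit was tested on simulated data. Arrays give no count depth, so their number limits the precision. Arrays of the same group correlated at 0.964 to 0.989 across probes. Named genes were all Mup probes, fixed stage and sex panels, and the 8 genes most like Mup3. Cyp4a12b had no probe matched, and some genes of the lists are not reported here and not counted. Members and lists were chosen with earlier results of these data known. Gene names come from RefSeq accessions (22951 probes) or the array (18223).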

Additional observations from a re-analysis of the deposited data

Results flagged for a closer look

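Of 42 checks for a reading far from the others of its group (Dixon's test at 95%, groups of 4 or 5 arrays), 4 passed, where about 5% pass by chance. Mup3 A_52_P232507 read 122.9 in the liver channel of female UV-Titan 8, against 9.52 for the next array of the group, and the reference channel of that spot read 150.5. Mup1 A_52_P348256 read 98.9 in female UV-Titan 21, next 9.13, with the reference at 86.9. Mup5 A_52_P412506 read 85.0 in male control 33, next 13.6, with the reference at 85.6. In these 3 cases both channels of 1 spot were bright together. The log2 ratio of Mup1 A_51_P180314 in female UV-Titan 21 was 0.15, next -0.08, for a spot not well above background in either channel.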

How the results depend on the processing

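The count of called Mup probes was 0 in all 5 contrasts under all alternatives that gave a value: other background corrections and normalisations, each channel alone, the deposited table, no brightness limit, 1 probe a gene, slide or scan day as a block, array weights, only the groups of a contrast (run for the 2 single-sex contrasts), 3 arrays with pancreas or muscle transcripts left out, and each array left out in turn. Requiring a signal well above background on all 16 arrays left no Mup probe and so no value. The groups share no replicate numbers, so arrays could be matched by slide or scan day only, as in those blocked fits.

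Of 284 alternative log2 differences of Mup3 and Mup4, 33 changed sign and 0 were called, with a smallest adjusted p of 0.712 (limma). Mup4 in males became -0.174 with processed signals, -0.0301 without background correction, -0.0892 and -0.0454 from liver alone (quantile, median-centred), -0.0787 from the reference, -0.0244 in the deposited table and -0.0398 without the 3 arrays. Mup3 male minus female became -0.0413 from liver alone (median-centred), -0.0018 in the deposited table, -0.0211 and -0.0169 with slide and with scan day as a block, -0.0115 with array weights and -0.009 without the 3 arrays. Mup3 in females became -0.042 from liver alone (median-centred). The female minus the male effect became 0.0749 with processed signals and 0.0418 from liver alone (quantile) for Mup3, and 0.0454 from the latter for Mup4. The reference channel alone gave 0.0838 for Mup4 in females, -0.05 for Mup3 in males, 0.0025 for Mup4 over both sexes, 0.1625 and 0.1004 for the difference of effects of Mup4 and Mup3, and 0.0475 for Mup4 male minus female. Leaving out each array in turn moved Mup4 in males between -0.0316 and 0.0443, Mup3 in females between -0.0254 (without female control 25) and 0.0951, and Mup3 male minus female between -0.0247 and 0.0298. Apart from leaving out single arrays, Mup3 ran from -0.042 to 0.3645 in females, from -0.05 to 0.2896 in males and from 1e-04 to 0.327 over both sexes, and Mup4 from -0.2402 to 0.0838, from -0.1744 to 0.0207 and from -0.2073 to 0.0025, with processed signals giving the values farthest from 0. The cause of these changes was not tested.

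Liver readings counted by the weaker mark (positive and significant) numbered 13 of 21 for female controls (2 by the stricter mark), 20 of 35 for exposed females (12), 16 of 28 for male controls (9) and 11 of 28 for exposed males (6). The mean over arrays of the median log2 ratio of the 7 probes was 0.03, -0.01, 0.05 and 0.01 in that order with the offset, and 0.235, 0.1026, 0.1525 and 0.0766 from processed signals. The gap between the highest and the lowest group in median liver signal was 0.04 on the log2 scale, and 0.76 from processed signal scaled to each array's 75th percentile. Signals this near background limit what any of these values can show.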
